A study of Mus musculus with 14 samples.

Results

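DNA methyltransferases, TET enzymes and their closest partners were followed as 9 genes chosen by name, Dnmt1, Dnmt3a, Dnmt3b, Dnmt3l, Uhrf1, Tet1, Tet2, Tet3 and Tdg, out of 25131 rows of the gene count table. They were compared between mouse embryonic stem cells (ESCs) labelled RCOR2 KO (2 libraries) and WT ESCs (2 libraries), and each gene was searched for RCOR2 binding sites within 10 kb. All cells were of the C57BL/6 background and grew on gelatin in serum with leukemia inhibitory factor, the MEK inhibitor PD0325901 and the GSK3 inhibitor CHIR99021. Binding was measured by chromatin immunoprecipitation with an anti-HA resin in cells that express RCOR2-HA (2 libraries), with WT cells and mCherry expressing cells as negative controls (1 library each), so it describes a tagged protein added to cells that were otherwise WT. The labels do not say how the knockout was made, which part of the gene is missing or whether the KO cells are 1 clone.

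DNMT3A and DNMT3B place new methyl groups on CpG cytosines, and DNMT3L, which has no catalytic activity of its own, binds them and stimulates them. DNMT1 copies existing methylation onto the new strand at replication, to which UHRF1 brings it by recognising CpG sites methylated on 1 strand. TET enzymes oxidise 5-methylcytosine, and thymine DNA glycosylase (TDG) cuts out the most oxidised forms so that base excision repair can restore an unmodified cytosine. ESCs held with MEK and GSK3 inhibitors are known for low DNA methylation, and RCOR2 is a CoREST-type corepressor that partners the histone demethylase LSD1. DNA methylation itself was not measured in these samples.

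Total counts were 2951498 and 1974865 for KO and 2368804 and 1286393 for WT, and 10241 genes passed the filter on low counts. Levels are given as CPM, counts scaled to the same library size (per 1e6), and differences as log2 fold changes of KO over WT with their standard error (SE). A gene was called at an adjusted p under 0.05 in edgeR's quasi-likelihood test with Benjamini-Hochberg adjustment over all 10241 genes. Separate cultures are not named for the replicates, so a p-value here reflects only how far these 4 libraries scatter, which can be technical scatter. Rcor2 itself was not called: it read 54.2 and 53.9 CPM in the KO libraries and 81.4 and 81.5 CPM in the WT libraries (log2 fold change −0.59, SE 0.23, adjusted p = 0.0636), and, since the deleted part is not known, this does not check the genotype. The 10 ESC markers were all tested and their summed level was 4618 and 4602 CPM in KO and 4408 and 4095 CPM in WT. By chromosome, the median log2 fold change reached 0.92 on chromosome 6, 0.48 on chromosome 3, 0.52 on chromosome 8 and −0.49 on chromosome 11. On the other autosomes and X it lay between −0.16 and −0.00. Genes on every chromosome were therefore also measured against the median of their own chromosome. On the Y chromosome 2 genes were tested, with a median of −6.02. The labels do not give the karyotype of either line, so a difference in chromosome copies and a change in the expression of genes on chromosomes 3, 6, 8 and 11, among them Tet2 and Tet3, cannot be told apart.

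Of the 9 genes, 8 passed the filter, and 3 of them rose in KO cells (Dnmt3l, Tet2 and Tet3), 2 fell (Dnmt3a and Tet1) and 3 were not called (Dnmt1, Dnmt3b and Uhrf1). Over all genes tested, 19.7% were called, 10.4% higher and 9.3% lower. The median log2 fold change of the 8 was 0.29, against −0.02 over all genes. In 7 of the 8 the KO and WT libraries did not overlap in CPM, Dnmt3b being the exception, but 56.9% of all genes tested did not overlap either. Tet2 lies on chromosome 3 and Tet3 on chromosome 6, and neither was called once changes were centred on the chromosome median. By that measure 12.9% of all genes were called, and of the 8 genes Dnmt3l rose and Dnmt3a and Tet1 fell.

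**Figure D1:**
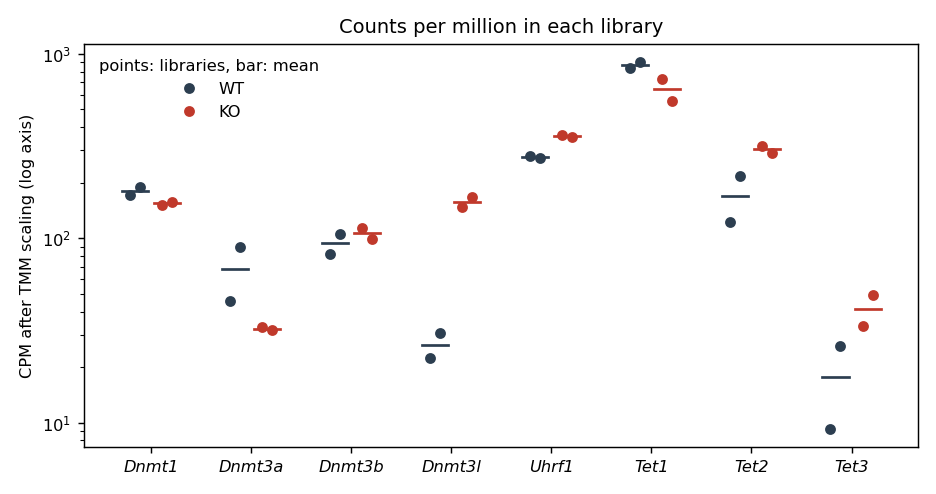
Level in CPM (log axis) of each of the 8 tested genes in the 4 RNA-seq libraries, with each point 1 library and each bar a group mean. Dnmt3l is at 147 and 166 CPM in KO and at 22.3 and 30.5 CPM in WT, while the points of Dnmt3b overlap between the groups.

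**Figure D2:**
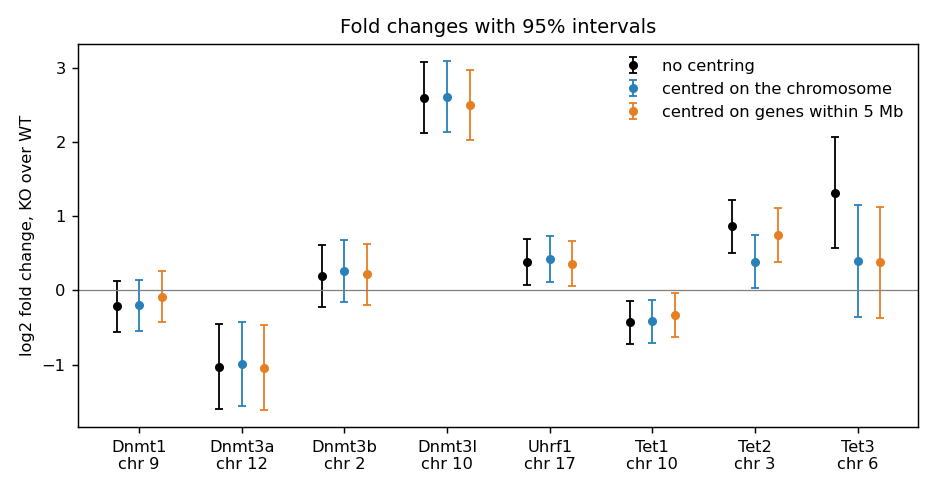
Log2 fold change of KO over WT for the 8 tested genes, with 95% intervals, as measured (black), centred on the median of the gene's chromosome (blue) and centred on genes within 5 Mb (orange). From black to blue Tet3 moves from 1.31 to 0.40 and Tet2 from 0.86 to 0.39, while Dnmt3l moves from 2.60 to 2.61.

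Among the genes of de novo methylation, the cofactor Dnmt3l showed the largest change of the 8. It gave 425 and 318 counts in the KO libraries and 53 and 40 in the WT libraries, or 147 and 166 CPM against 22.3 and 30.5 CPM. Both KO libraries were thus far above both WT libraries. The means were 157 ± 13.9 and 26.4 ± 5.75 CPM (SD, n = 2 each), a 6.05-fold rise (95% interval 4.36 to 8.41) with a log2 fold change of 2.60 (SE 0.24) and an edgeR adjusted p of 3.90e-13. By adjusted p it ranked 17 of the 10241 genes, and by size of change 207. In a bulk sample a rise of RNA per cell and a rise in the share of cells that express a gene cannot be told apart, for this gene as for the others.

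The enzyme Dnmt3a moved the other way. It gave 95 and 61 counts in KO and 108 and 118 in WT, or 32.8 and 31.9 CPM against 45.5 and 89.9 CPM. The KO libraries were nearly equal and both lower, while the WT libraries differed from each other 1.97-fold. The log2 fold change was −1.03 (SE 0.29, 95% interval −1.60 to −0.46, edgeR adjusted p = 0.00631). The size of the fall rests on the second WT library: without it the log2 fold change was −0.49 with an adjusted p of 0.381, and with all libraries DESeq2, which called 11.3% of all genes, gave −1.04 with an adjusted p of 0.0538.

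Dnmt3b, the other de novo enzyme, was not called. It read 113 and 98.9 CPM in KO and 82.2 and 105 CPM in WT, so the groups overlapped. Its log2 fold change was 0.20 (SE 0.21), with a 95% interval from −0.22 to 0.61 that holds changes of either sign, and the edgeR adjusted p was 0.575. The 3 genes of de novo methylation thus differed among themselves: 1 rose, 1 fell and 1 was not called.

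The stretches in front of the listed starts of these genes are shown because they differ in CpG content and in RCOR2 binding. They come from RefSeq on GRCm38.p6, forward strand, 5′ to 3′, with each CpG in capitals. For Dnmt3a the stretch is chr12:3806730-3806979, the 250 bases before the first of 3 listed starts, which holds 38 CpG and lies inside the gene's RefSeq interval, downstream of that interval's first base. For Dnmt3l it is chr10:78042037-78042286, the 250 bases before the first of 3 listed starts, just outside the gene, with 5 CpG. For Dnmt3b it is chr2:153649199-153649410, 212 bases just outside the gene that end 38 bases before the listed start, with 16 CpG.
Dnmt3a: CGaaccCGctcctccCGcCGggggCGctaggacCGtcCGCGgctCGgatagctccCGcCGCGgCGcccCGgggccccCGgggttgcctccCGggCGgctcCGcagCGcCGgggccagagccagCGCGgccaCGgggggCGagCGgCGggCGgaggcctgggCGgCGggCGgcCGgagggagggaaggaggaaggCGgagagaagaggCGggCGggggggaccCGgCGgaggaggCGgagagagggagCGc
Dnmt3l: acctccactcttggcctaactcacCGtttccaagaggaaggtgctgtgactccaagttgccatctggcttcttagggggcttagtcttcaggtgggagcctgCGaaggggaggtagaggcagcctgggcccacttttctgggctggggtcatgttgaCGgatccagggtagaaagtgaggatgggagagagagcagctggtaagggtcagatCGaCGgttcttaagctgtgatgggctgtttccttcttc
Dnmt3b: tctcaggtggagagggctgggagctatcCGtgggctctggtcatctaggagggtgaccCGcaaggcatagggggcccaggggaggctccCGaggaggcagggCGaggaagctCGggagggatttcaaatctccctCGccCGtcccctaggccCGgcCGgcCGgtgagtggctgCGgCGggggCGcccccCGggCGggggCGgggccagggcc
The capitals are dense along the whole Dnmt3a stretch, gather towards the gene in Dnmt3b and are few in Dnmt3l. In full windows of 300 bases (250 before a listed start and 50 after) Dnmt3a held 46, 47 and 18 CpG at its 3 starts, Dnmt3b held 30, and Dnmt3l held 6, 4 and 3. The median of all 32851 such windows in the RefSeq table was 7, with quartiles of 3 and 20.

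The maintenance genes showed smaller differences, and neither was called. Dnmt1 read 152 and 157 CPM in KO and 171 and 188 CPM in WT. Its log2 fold change of −0.21 (SE 0.17, 95% interval −0.56 to 0.13) had an edgeR adjusted p of 0.437. Uhrf1 read 364 and 355 CPM in KO and 278 and 273 CPM in WT. Replicates lay close together and the groups did not overlap, but the log2 fold change of 0.39 (SE 0.15, 95% interval 0.08 to 0.69) missed the threshold, with an edgeR adjusted p of 0.0680. The 2 maintenance genes had opposite signs, and the interval of Dnmt1 includes 0.

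Uhrf1 is shown for its start, which an RCOR2 peak overlaps. The 250 bases before its first listed start, chr17:56303087-56303336 on the forward strand of GRCm38.p6 (RefSeq, CpG in capitals), hold 10 CpG.
Uhrf1: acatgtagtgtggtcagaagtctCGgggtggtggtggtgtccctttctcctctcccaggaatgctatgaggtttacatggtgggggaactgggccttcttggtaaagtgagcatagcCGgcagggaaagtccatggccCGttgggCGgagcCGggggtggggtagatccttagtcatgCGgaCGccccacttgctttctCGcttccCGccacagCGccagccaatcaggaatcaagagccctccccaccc
Most of its CpG sites lie in the part nearest to the start. The full window held 12 CpG at the first start and 33 at the second. Dnmt1 has 3 listed starts, whose windows held 2, 12 and 33 CpG. The start with 2 CpG is the most distal one, at the edge of the gene interval.

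The 3 TET genes did not move together. Tet1 read 727 and 557 CPM in KO and 836 and 898 CPM in WT, so both KO libraries were lower and the second was the lowest. Its log2 fold change was −0.43 (SE 0.15, 95% interval −0.72 to −0.14, edgeR adjusted p = 0.0287). This is a fall of modest size, 642 ± 121 against 867 ± 43.3 CPM (SD, n = 2 each). The call was lost in 6 of 13 alternatives. Among them, the log2 fold change was −0.24 without the second KO library (adjusted p = 0.616), −0.43 by DESeq2 (adjusted p = 0.0706) and −0.33 centred on the 51 genes within 5 Mb (adjusted p = 0.130), whose median was −0.10.

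Tet2 read 317 and 291 CPM in KO and 122 and 218 CPM in WT. Both KO libraries were above both WT libraries, which differed from each other 1.78-fold. The log2 fold change was 0.86 (SE 0.18, 95% interval 0.50 to 1.22, edgeR adjusted p = 2.48e-04). Without the first WT library it was 0.50 with an adjusted p of 0.0503, and without the second it was 1.31. Centred on chromosome 3 it was 0.39 (SE 0.18, adjusted p = 0.160), but the 36 genes tested within 5 Mb of Tet2 had a median of 0.12, and centred on those the log2 fold change was 0.75 with an adjusted p of 0.00233, where 13.4% of all genes were called.

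Tet3 read 33.5 and 49.2 CPM in KO and 9.27 and 25.9 CPM in WT, from 97 and 94 against 22 and 34 counts. The groups did not overlap, and the WT libraries differed from each other 2.79-fold. The log2 fold change was 1.31 (SE 0.37, 95% interval 0.57 to 2.06, edgeR adjusted p = 0.00785). Centred on chromosome 6 it was 0.40 (SE 0.38, adjusted p = 0.563), and centred on the 63 genes within 5 Mb, whose median was 0.94, it was 0.38 (adjusted p = 0.583). The interval of that difference, −0.37 to 1.13, holds changes of either sign. DESeq2 did not call it (1.29, adjusted p = 0.0793), nor did edgeR without the second KO library (1.03, adjusted p = 0.141) or without the first WT library (0.67, adjusted p = 0.279), while without the second WT library it was 2.13.

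The promoter windows of the TET genes held 17 CpG at the listed start of Tet1, 22 at that of Tet3 and 57 at that of Tet2, more than 99.8% of all windows in the table.

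Tdg was listed at 0 in all 4 libraries and was not tested. A count of 0 allows up to 1.04 to 2.29 CPM in these libraries, for counting error only. RefSeq lists pseudogenes of Tdg, and the one with a row in the count table, Gm9855, was also at 0. No source used here says how reads shared by gene copies were counted, so the level of Tdg is not known from this table. The same limit holds for Dnmt3a, Dnmt3b and Dnmt3l, for which RefSeq lists pseudogenes too.

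The surroundings of each gene were compared within 1 Mb. Around Dnmt3l 19 genes were tested, of which 2 rose (Pfkl 0.67 and Cstb 0.89) and 1 fell (Col18a1 −1.89), with a median log2 fold change of 0.24 and none above Dnmt3l. The highest was Aire, a transcription factor gene whose RefSeq interval overlaps that of Dnmt3l by 1324 bases. Aire gave 45 and 40 counts in KO and 21 and 9 in WT (log2 fold change 1.17, SE 0.51, edgeR adjusted p = 0.0975). Whether counting used strand is not given, so reads in the overlap cannot be assigned. Around Tet2 none of 6 genes was called and the median was 0.05. Around Tet3 18 of 25 genes rose and 1 fell, the median was 1.05 and 8 had a higher log2 fold change than Tet3. Around Dnmt3a 1 of 13 rose and 1 fell (median 0.05), and around Tet1 none of 18 rose and 1 fell (median −0.36). Near Dnmt3b 2 of 23 rose and 1 fell (median −0.04), and near Uhrf1 1 of 36 rose and 1 fell (0.02). None of 33 rose and 1 fell near Dnmt1 (−0.13), and none of 12 rose and 1 fell near Tdg (−0.15). Over all genes tested 10.4% were called higher and 9.3% lower.

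**Figure D3:**
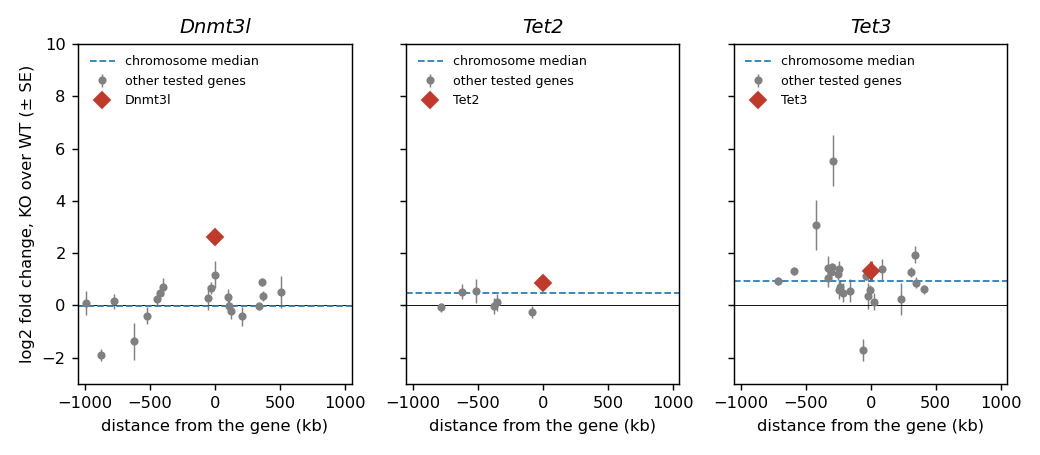
Log2 fold change of KO over WT for each gene tested within 1 Mb of Dnmt3l, Tet2 and Tet3, against its distance in kb, with SE bars, the gene itself as a diamond and the chromosome median dashed. Dnmt3l and Tet2 stand above all of their 19 and 6 neighbours, while 8 of the 25 neighbours of Tet3 lie above it.

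RCOR2 peaks were found at every one of the 9 genes. All 9 had a summit within 10 kb of the gene, as did 66.3% of the 25027 genes placed on the genome and 88.7% of the 10215 that were also tested, so this count is near the background of expressed genes. The peaks, their fold enrichment and their −log10 q (the significance of a peak after correction) are the authors' and describe libraries called together, with no replicate values. The 9 windows held 66 peaks, 45 inside the genes, 15 before them and 6 after them. Of these, 18 had a summit within 1 kb of a listed start, at least 1 for each gene. All 9 genes had a peak with a −log10 q of at least 5, and 8 had a peak of at least 5-fold, Tdg being the exception. Peaks of that −log10 q were common: the strongest peak of tested genes had a median of 7.42. The strongest peak of Tdg, at 5.16, was above that of only 30.0% of tested genes. The share of all genes with a 5-fold peak, or with a summit within 1 kb of a start, was not counted. None of the 17 peaks pulled down by the TALE proteins aimed at Nanog lay in the 9 windows.

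**Figure D4:**
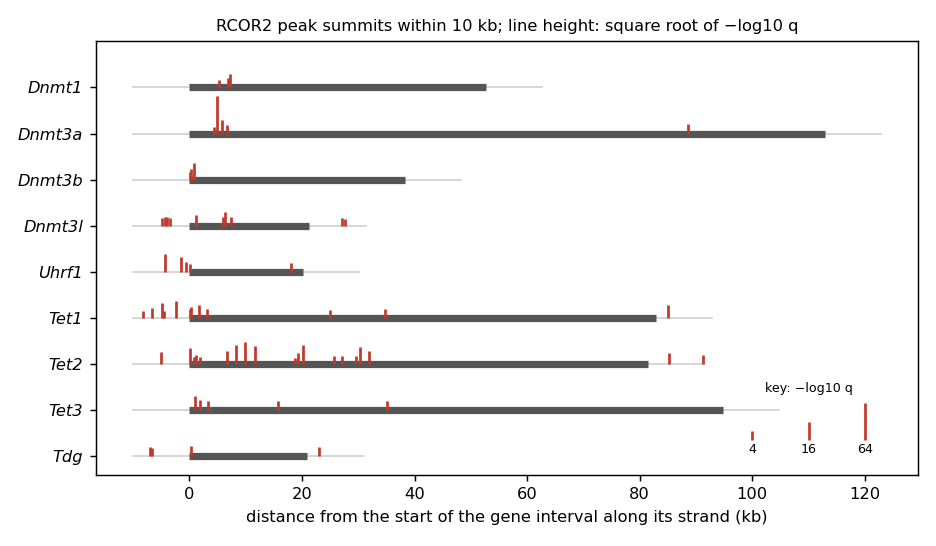
RCOR2 peak summits in the window of each gene, by distance in kb from the start of the gene interval along its strand, with line height the square root of −log10 q and the thick bar the gene. The line of Dnmt3a, with a −log10 q of 67.7, is the tallest, and the 19 peaks of Tet2 are spread through its gene.

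The strongest of the 66 peaks lay at Dnmt3a, the methyltransferase gene that fell. The peak at chr12:3806199-3807115 had an 18.8-fold enrichment and a −log10 q of 67.7, above that of 99.5% of the 53366 RCOR2 peaks. It covers the whole CpG-dense stretch printed above, with its summit 524 bases before the first listed start. A peak on either side was weaker, at chr12:3805904-3806114 (3.01-fold, 978 bases before) and at chr12:3807203-3808072 (5.98-fold, 171 bases after the second start). The gene had 5 peaks in its window, against a median of 2 for tested genes, but it is long, 113 kb against a median of 23.5 kb. Per 100 kb of window this was 3.76 peaks, against a median of 4.45 over tested genes.

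Dnmt3l, the gene that rose most, had weaker peaks. It had 10 in its window, more than 95.9% of tested genes. Per 100 kb of window these gave 24.2 peaks, the highest value of the 9 genes and above that of 96.8% of tested genes. None of the 10 lay within 1 kb of the start whose sequence is printed above. The 4 peaks before the gene lay inside the interval of Aire, which overlaps that of Dnmt3l, as did the summit of chr10:78043140-78043644. The strongest of the 10, chr10:78048399-78048828 (5.73-fold, −log10 q of 8.62), had its summit 1205 bases before the second listed start. Closer to that start, chr10:78049640-78049784 (3.92-fold) had its summit 82 bases before it. Its strongest peak was above the strongest peak of 57.4% of tested genes, for which the median −log10 q was 7.42. At Dnmt3b 3 peaks lay just after the start, the strongest of them chr2:153649885-153650326 (7.13-fold, 13.5), 748 bases after it. The others were chr2:153649421-153649581 (3.46-fold, 51 bases after) and chr2:153649663-153649793 (4.61-fold, 242 bases after).

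For the maintenance genes the strongest peaks were chr17:56298711-56299025 at Uhrf1 (7.81-fold, −log10 q of 15.4), 4412 bases before the first start, and chr9:20952179-20952932 at Dnmt1 (5.52-fold, 8.23), 63 bases before the third listed start. Closer to the Uhrf1 start lay chr17:56302721-56302971 (4.38-fold, 514 bases before) and chr17:56303314-56303522 (3.69-fold, 71 bases after). Dnmt1 had chr9:20953008-20953186 (4.38-fold), 130 bases before its second start. No peak lay at the Dnmt1 start at the gene edge.

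Tet2 held 19 peaks, more than 99.5% of tested genes. Per 100 kb of window this was 18.7, against a median of 4.45 over tested genes and 24.2 at Dnmt3l. The strongest, chr3:133535029-133536002 (8.59-fold, −log10 q of 23.4), lay 9192 bases after the listed start, inside the gene. Within 1 kb of the start were chr3:133544573-133545274 (5.99-fold, 557 bases before), chr3:133544276-133544406 (3.42-fold, 21 bases after) and chr3:133543927-133544190 (3.38-fold, 350 bases after). The 2 peaks at these 9 genes that reached 1 kb in width were both in Tet2. Tet3, the other TET gene that was higher in KO cells, had 5 peaks, or 4.35 per 100 kb.

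At Tet1 there were 12 peaks, the strongest at chr10:62889443-62890404 (7.05-fold, −log10 q of 13.8), 2453 bases before the start. Nearer to it lay chr10:62887319-62887449 (4.15-fold, 30 bases before) and chr10:62887004-62887205 (4.63-fold, 231 bases after). At Tet3 the strongest was chr6:83455740-83456425 (6.21-fold, 9.85), 14483 bases before the listed start. It lay inside the gene interval, 1047 bases after the start of that interval along its strand. Near the listed start, chr6:83441293-83441470 (4.15-fold) lay 274 bases after it. Tdg had 4 peaks, the strongest of them chr10:82629715-82630292 (4.61-fold, 5.16), 217 bases after its start. Genes that rose, genes that fell and genes that were not called all had RCOR2 peaks, and no test of binding against expression was made across so few genes.

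Motif letters were searched in the windows of 300 bases on both strands. GGGCGG, the core of the GC box bound by SP factors, was in 35.7% of all windows and in 12 of the 16 windows of these genes, all but 2 of Dnmt1, 1 of Dnmt3l and that of Tdg. CACGTG, an E-box, was in 7.15% of windows, and here at the third start of Dnmt3a, the second of Dnmt3l and the start of Tdg. CCGGAAG, an ETS motif, was in 8.86% of windows and in none of these. These are matches of letters only. The 16 windows are not separate units, since Dnmt1, Dnmt3a and Dnmt3l give 3 each and the first 2 of Dnmt3a overlap. GC content in the 16 ran from 51.3% to 82.3%, against a median of 52.7% over all windows. The part of GC content in these matches was not tested.

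Other genes of the methylation pathway were counted in 5 lists with 74 genes, of which 66 were tested. Of these 4 rose and 11 fell, which is 22.7% called against 19.7% of all genes tested, and the median log2 fold change was −0.18. Of the 15 called genes 9 lie on chromosomes 3, 6, 8 and 11, as do 910 of the 2014 genes called in all. Among tested genes, 16 of the 66 list genes and 2417 of all 10241 lie there. In a fit without those chromosomes 6 of 50 list genes (12.0%) and 12.0% of all genes were called. The distance of the lists from the background depended on the setting. By limma-voom 22.7% of list genes were called against 20.7% of all genes, and by DESeq2 21.2% against 11.3%. Centred on the chromosome the shares were 22.7% and 12.9%, with 2 list genes higher and 13 lower. The germline list, described below, gave 6 of the 15 edgeR calls. It gave 6 calls by DESeq2, 7 by limma-voom and 7 centred on the chromosome. That list was chosen with earlier results of these data known, so the shares of the 5 lists together are not independent of them. The readers of methylated and unmethylated CpG (10 of 13 tested, median −0.10) held no called gene by edgeR, DESeq2 or limma-voom and none with an unadjusted p under 0.05, although 1, the methyl-CpG binding glycosylase gene Mbd4 on chromosome 6, moved from −0.18 to −1.10 once centred on its chromosome (adjusted p = 0.00640).

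**Figure D5:**
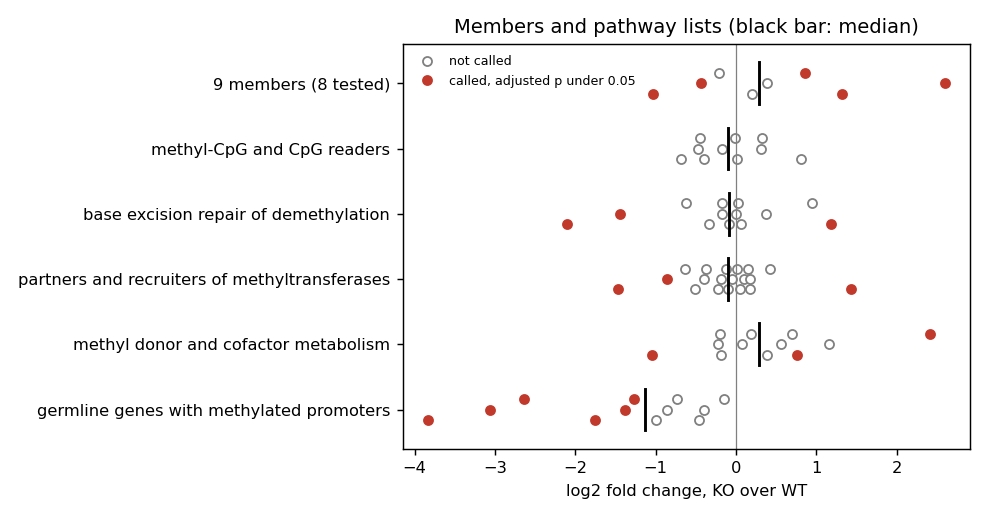
Log2 fold change of KO over WT for each tested gene of the 9 followed here and of the 5 pathway lists, with called genes filled and the median of each list as a bar. All 12 germline genes lie below 0, with a median of −1.13, while the medians of the other 4 pathway lists lie between −0.10 and 0.28.

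Among partners and recruiters of the methyltransferases 1 of 19 rose and 2 fell (median −0.10), or 15.8% called against 19.7% of all genes. Dppa3, whose protein keeps UHRF1 from chromatin, gave 322 and 143 counts in KO and 645 and 324 in WT. It fell by 1.47 on the log2 scale (SE 0.18, edgeR adjusted p = 7.12e-09), and by 2.39 relative to its chromosome, 6. Cdca7, a partner of the remodeller HELLS, which methylation of repeats needs, fell by 0.86 (SE 0.18, edgeR adjusted p = 2.76e-04). Both were called in every alternative in which they could be fitted. Setdb1, a histone H3 lysine methyltransferase, rose by 1.43 (SE 0.38, edgeR adjusted p = 0.00404). It lies on chromosome 3, and centred on it the log2 fold change was 0.95 with an adjusted p of 0.0864. Without the second KO library it was 0.89 with an adjusted p of 0.269.

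In base excision repair, the step after TET and TDG, 1 of 13 tested genes rose and 2 fell (median −0.09), or 23.1% called against 19.7% of all genes. Gadd45b, a stress gene linked to demethylation, gave 100 and 45 counts in KO and 223 and 84 in WT and fell by 1.44 (SE 0.27, edgeR adjusted p = 4.60e-05). Its relative Gadd45a rose by 1.19 (SE 0.28, edgeR adjusted p = 0.00110), but it lies on chromosome 6 and read 0.27 once centred there (adjusted p = 0.606). Gadd45a was also not called without the first KO library (0.71, adjusted p = 0.212) or without the first WT library (0.75, adjusted p = 0.0856). Neil3, a DNA glycosylase, was called lower at low counts (5 and 4 in KO, 27 and 6 in WT; log2 fold change −2.11, SE 0.78, edgeR adjusted p = 0.0472) and kept that call in 4 of 11 alternatives. Neil3 was not called by DESeq2 (adjusted p = 0.213), nor without either KO library (0.312 and 0.217) or the second WT library (0.0728), and without the first WT library it did not pass the filter. Once centred on its chromosome, Parp1, which senses strand breaks, was called higher (0.49, adjusted p = 0.0237), against 0.37 and an adjusted p of 0.0812 before.

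In methyl donor metabolism 2 of 12 tested genes rose and 1 fell (median 0.28), or 25.0% called against 19.7% of all genes. Mat2a, the catalytic subunit that makes S-adenosylmethionine, rose by 0.75 (SE 0.14), but it too lies on chromosome 6 and was at −0.17 relative to it, which was not called (adjusted p = 0.517). Its regulatory subunit Mat2b, on chromosome 11, fell by 1.04 (SE 0.18), and by 0.56 relative to its chromosome (adjusted p = 0.0277). Nnmt, which spends S-adenosylmethionine on nicotinamide, rose by 2.41 (SE 0.61, edgeR adjusted p = 0.00282) from 9 and 3 counts in WT to 58 and 27 in KO. Without the first KO library Nnmt was not called (adjusted p = 0.121).

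Of the 15 listed germline genes whose promoters are known to be silenced by DNA methylation, 12 were tested. Of these 6 fell, none rose and all 12 had a negative fold change, with a median of −1.13. Over all genes tested 9.3% were called lower and 51.0% had a negative fold change. The list was chosen with earlier results of these data known, so this contrast is not independent of them. One negative example that was not called is Stk31 (−0.15). Dazl, an RNA-binding protein of germ cells, gave 115 and 63 counts in KO and 767 and 382 in WT and fell by 3.07 on the log2 scale. Mael, of the transposon-silencing piRNA pathway, gave 2 and 2 counts in KO and 25 and 20 in WT and fell by 3.83. The transcription factor Sohlh2 fell by 2.64, the synaptonemal complex genes Sycp3 and Sycp1 by 1.75 and 1.27, and the testis tubulin Tuba3a by 1.39. All 6 were called in every alternative in which they could be fitted. Tex19.1 was at 0.09 relative to its chromosome, so not all 12 were negative by that measure. Hormad1, on chromosome 3, went from −0.47 (not called) to −0.94 relative to it (edgeR adjusted p = 0.00239). By that measure 7 of the 12 were called lower, as were 683 of all 10241 genes tested. Methylation at these promoters was not measured, and 6 of the 12 lie on the 4 shifted chromosomes.

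Markers of other cell types were read beside these changes. Fibroblast markers (8, of which 2 were tested) summed to 18.6 and 12.0 CPM in KO and 25.3 and 35.8 CPM in WT, of which Fbln2 was called (2 counts in KO and 33 in WT). Trophoblast markers (6, of which 1 was tested) summed to 22.4 and 33.0 CPM in KO and 7.17 and 7.62 CPM in WT, with Eomes called higher (log2 fold change 3.30). Primitive endoderm markers (6, none tested) summed to 7.25 and 3.14 CPM in KO and 1.69 and 5.33 CPM in WT, with Foxa2 at 0, and neural markers (6, of which 1 was tested) to 10.4 and 18.3 against 21.1 and 15.2 CPM, with Neurog2 and Dcx at 0. Among the 10 ESC markers Klf4 (1.30) and Nanog (0.48) were higher and Dppa5a (−0.47) was lower, or 30.0% called against 19.7% of all genes. However, Nanog, on chromosome 6, was at −0.44 relative to it (edgeR adjusted p = 0.0362), of the opposite sign. Sox2, on chromosome 3, went from −0.24 (not called) to −0.72 relative to it (edgeR adjusted p = 1.90e-04). By this measure 1 of the 10 ESC markers was higher and 3 were lower, while of all 10241 genes 643 were higher and 683 lower. Nanog and Dppa5a were not called without either KO library, nor Dppa5a without the first WT library, nor Fbln2 without the first KO library. Dppa5a was also not called centred on genes within 5 Mb (−0.25) or in the fit without chromosomes 3, 6, 8 and 11 (−0.42). The part of any of these marker changes in the values of the methylation genes was not tested.

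The genes whose pattern over the 4 libraries was most like that of Dnmt3l, by Euclidean distance in log2(CPM + 1), were Anxa2 (distance 0.53), Id3 (0.67) and Rab11fip5 (0.72). Anxa2, an annexin, read 149 and 169 CPM in KO and 17.3 and 22.9 CPM in WT. Id3, an inhibitor of basic helix-loop-helix factors, read 210 and 196 CPM in KO and 27.0 and 36.6 CPM in WT. Rab11fip5, an endosome trafficking gene, read 125 and 111 CPM in KO and 17.7 and 26.7 CPM in WT. Like Dnmt3l, all 3 were high in both KO libraries and low in both WT libraries, and 4 libraries cannot order genes of this pattern further. Rab11fip5 lies on chromosome 6, and its log2 fold change went from 2.46 to 1.54 relative to it (SE 0.26, edgeR adjusted p = 1.29e-05).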

How the data were processed

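The authors deposited raw read counts per gene symbol for 4 RNA-seq libraries and RCOR2 and TINC peak lists, where TINC is the pull-down of the Nanog promoter with TALE proteins. Each deposited peak carries a fold enrichment (a ratio to control) and a −log10 q value. Named in the submitters' processing notes, with builds GRCm38 and mm10, are Trimmomatic 0.36, STAR 2.5.2b, Subread, featureCounts, Bowtie2 2.3.4.1 and MACS2 2.1.1.20160309, without the step each served. No source used here gives strand use, the collapse of molecular identifiers, the treatment of reads shared by gene copies or the control of each peak call. RCOR2 peak names show a call on merged libraries.

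The test on counts was that of edgeR 4.0.16 under R 4.3.3 (filterByExpr, TMM, quasi-likelihood test, two-sided, Benjamini-Hochberg over 10241 genes, adjusted p under 0.05) after a test on simulated data. CPM use TMM-scaled library sizes. Counts of 1286393 to 2951498 per library limit the precision for low genes, and the limit from a count of 0 is 3 counts. Replicates differed by more than sampling noise (chi-square per degree of freedom 4.22 in KO and 4.78 in WT).

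RefSeq tables of GRCm38.p6 placed 25027 of 25131 rows and gave the promoter windows and listed starts, without exons. Positions are 1-based. A peak was assigned to a gene when its summit lay in the gene interval or within 10 kb, and a distance is from the summit to the nearest listed start. Centring used the median log2 fold change of the chromosome as an offset on the KO libraries. Centring on genes within 5 Mb was added after seeing the data.

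The members and lists were chosen with earlier results of these data known. Named were all members, every called gene of a pathway list or marker list, the strongest peak and all peaks within 1 kb of a listed start, 3 genes most like Dnmt3l, and Rcor2. Neighbours, Stk31, Tex19.1, Hormad1, Mbd4, Parp1 and Sox2 were named after their values were seen. Alternatives were DESeq2 1.42.0, limma-voom (limma 3.58.1), other scalings, no filter, a replicate block, each library left out, and other peak thresholds and windows. The ATAC-seq, input and negative control samples were not analysed here.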

Additional observations from a re-analysis of the deposited data

How the results depend on the processing

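Dnmt3l was called higher in all 13 alternatives, at 2.37 to 2.80, and Dnmt1, Dnmt3b and Uhrf1 were called in none of 13. No member changed sign. DESeq2 called 1156 genes in place of 2014, and 2 of the members in place of 5, with Dnmt3a at −1.04 (adjusted p = 0.0538), Tet1 at −0.43 (0.0706) and Tet3 at 1.29 (0.0793) no longer called. Centring on the chromosome left 1326 genes and 3 members called, with Tet2 at 0.39 and Tet3 at 0.40 not called. Centring on genes within 5 Mb, chosen after seeing the data, left 3 members called, with Tet1 at −0.33 and Tet3 at 0.38 not called. Leaving out the genes of chromosomes 3, 6, 8 and 11 left 931 genes of 7759, 2 members of 6 and 6 list genes of 50 called in place of 15, fewer genes being tested, and Tet1 was at −0.38 (adjusted p = 0.0969). Without the filter on low counts Tet1 was at −0.41 (adjusted p = 0.0607).

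With each library left out in turn, in fits where the lone sample is assumed to vary like the other group, 1035 to 1699 genes, 3 to 5 members and 12 to 14 list genes were called. The ranges were −1.46 to −0.49 for Dnmt3a, −0.64 to −0.24 for Tet1, 0.50 to 1.31 for Tet2 and 0.67 to 2.13 for Tet3. Of the members 3 were called without the second KO library and 3 without the first WT library. Without the first KO library 1035 genes were called and without the second 1061. Deviations of the libraries numbered 1 had a correlation of −0.05 over 10241 genes, so no shared effect of the replicate number was seen. With 2 libraries per group this cannot show whether the samples were paired. The replicate block gave 1822 calls in place of 2014 and 4 of the members, with Tet1 at −0.44 (adjusted p = 0.0519) not called and no other member's call changed, and 14 list genes in place of 15, Neil3 (adjusted p = 0.0956) no longer called. All 9 members kept an RCOR2 peak under each other window and at a −log10 q of at least 5, and 8 did at a fold of at least 5. Depth also limits Tet3, which had 22 to 97 counts per library.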
